A study of Mus musculus with 26 samples.

Results

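In mouse sperm, 17345 autosomal windows of 1000 bp carried few measured cytosines and almost no methylation. Each held 1 to 5 CpG positions with at least 10 reads in every one of the 20 offspring libraries, and its methylation level (methylated reads over reads, averaged over those libraries) was under 20%. They were 16.4% of the 106004 autosomal windows with any such position and 20.4% of the 85164 windows with 1 to 5 positions. A position is a cytosine of a CpG on 1 strand, so both strands of a CpG count separately. The windows were selected on their level in the 20 offspring libraries, so that level is given as a description, with no test. The transplanted founders and their controls were not used in the choice.

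Reduced-representation bisulfite sequencing (RRBS), which reads CpGs near the cut sites of the enzyme MspI, was applied to epididymal sperm of 26 male mice, all labelled DBA/2J. SSCT F0 (n = 3) were infertile W/W-v recipients of the WBB6F1/J background whose testes had been repopulated with cultured DBA/2J spermatogonial stem cells (SSCT, spermatogonial stem cell transplantation). Control F0 (n = 3) were unmanipulated DBA/2J males, and both F0 groups were sampled at 16 to 18 months. SSCT F1 (n = 5) descended from SSCT F0 males and DBA/2J females, SSCT F2/M (n = 5) from SSCT F1 mothers and control males, SSCT F2/P (n = 5) from SSCT F1 fathers and control females, and Control F1 (n = 5) from control mice, all sampled at 3 months. The transplanted cells came from several cell lines kept in culture for weeks, and the recipients' own somatic cells surrounded the donor sperm, so culture, host strain and transplantation cannot be told apart in SSCT F0. Age also separated the F0 groups from their offspring. Input DNA was lower in all 3 SSCT F0 libraries, and SSCT F0 replicate 3 stood apart, with 305964 positions listed against 1123580 to 2232483 in the other 25 libraries.

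The group names used here are those of the sample titles. The study's clustering figure gives the same 4 offspring sets other names: titled Control F1 appears there as SSCT F2/M, titled SSCT F1 as SSCT F2/P, titled SSCT F2/M as control F1 and titled SSCT F2/P as SSCT F1. The treatment label marks titled Control F1 and titled SSCT F2/M as wild type. Which naming holds could not be settled, so every pair of offspring sets was compared, and each comparison below is one of titled sets.

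In mammals most CpGs are methylated, and in sperm the bulk of the genome is close to fully methylated. Unmethylated DNA lies mainly in CpG islands, stretches rich in CpG that overlap gene starts and are kept free of DNA methyltransferases by factors such as CFP1 and by the histone mark H3K4me3. Male germ cells are wiped of methylation in the embryo and remethylated before birth, and regions that stay unmethylated in sperm often belong to genes of basic cell functions, of the germ line and of embryonic patterning.

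The stretch just upstream of the start shows how little of such a region the assay kept. The 250 bases before 9 gene starts that lie in these windows follow, from RefSeq on GRCm38.p6, written 5′ to 3′ on the strand of the gene. Capitals mark the CpGs with at least 10 reads in all 20 offspring libraries, and CpGs in lower case did not reach that. Mael (minus strand, chr1:166238745-166238994), a germ-line gene that silences transposons, and Plcl1 (plus strand, chr1:55405696-55405945), whose window had no methylated read, are shown first. Neurog1 (minus strand, chr13:56252181-56252430) encodes a neural transcription factor and Mcts2 (plus strand, chr2:152686898-152687147) is an imprinted retrogene inside H13. Spaca1 (minus strand, chr4:34050066-34050315) and Hspa1l (plus strand, chr17:34972453-34972702) are active in spermatids. Snrpd3 (plus strand, chr10:75517792-75518041) encodes a splicing protein, Meg3 (plus strand, chr12:109540746-109540995) an imprinted RNA and Apob (plus strand, chr12:7977427-7977676) a liver and gut apolipoprotein.
Mael: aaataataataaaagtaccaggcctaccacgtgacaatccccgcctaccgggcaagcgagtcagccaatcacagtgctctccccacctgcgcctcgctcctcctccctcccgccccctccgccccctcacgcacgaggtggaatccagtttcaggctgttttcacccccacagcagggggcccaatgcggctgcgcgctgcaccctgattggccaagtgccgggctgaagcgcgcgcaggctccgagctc
Plcl1: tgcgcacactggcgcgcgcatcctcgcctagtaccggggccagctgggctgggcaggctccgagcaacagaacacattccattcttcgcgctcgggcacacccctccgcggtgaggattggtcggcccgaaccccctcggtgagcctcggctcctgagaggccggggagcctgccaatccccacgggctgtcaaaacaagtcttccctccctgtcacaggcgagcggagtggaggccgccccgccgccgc
Neurog1: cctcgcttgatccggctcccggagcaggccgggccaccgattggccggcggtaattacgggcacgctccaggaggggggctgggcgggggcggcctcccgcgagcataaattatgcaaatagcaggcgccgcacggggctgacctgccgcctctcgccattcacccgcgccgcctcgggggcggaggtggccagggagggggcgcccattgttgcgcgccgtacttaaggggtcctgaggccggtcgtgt
Mcts2: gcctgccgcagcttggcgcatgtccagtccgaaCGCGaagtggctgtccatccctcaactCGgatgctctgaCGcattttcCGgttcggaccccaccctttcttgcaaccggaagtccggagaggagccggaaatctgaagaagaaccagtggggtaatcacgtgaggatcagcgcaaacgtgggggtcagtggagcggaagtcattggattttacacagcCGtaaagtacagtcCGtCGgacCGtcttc
Spaca1: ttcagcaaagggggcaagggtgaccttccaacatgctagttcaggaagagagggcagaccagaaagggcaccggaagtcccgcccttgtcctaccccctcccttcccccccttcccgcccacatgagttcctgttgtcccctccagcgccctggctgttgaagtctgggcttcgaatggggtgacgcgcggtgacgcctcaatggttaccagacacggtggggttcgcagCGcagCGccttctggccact
Hspa1l: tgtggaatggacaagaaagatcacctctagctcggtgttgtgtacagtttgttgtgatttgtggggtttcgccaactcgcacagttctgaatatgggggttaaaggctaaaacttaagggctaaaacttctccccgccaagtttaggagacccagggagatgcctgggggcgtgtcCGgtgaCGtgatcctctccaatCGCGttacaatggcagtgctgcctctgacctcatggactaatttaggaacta
Snrpd3: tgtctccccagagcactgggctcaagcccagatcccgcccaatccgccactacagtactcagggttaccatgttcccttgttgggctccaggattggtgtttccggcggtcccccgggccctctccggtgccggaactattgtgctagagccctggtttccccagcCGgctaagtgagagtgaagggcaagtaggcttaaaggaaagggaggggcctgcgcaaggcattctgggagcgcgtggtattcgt
Meg3: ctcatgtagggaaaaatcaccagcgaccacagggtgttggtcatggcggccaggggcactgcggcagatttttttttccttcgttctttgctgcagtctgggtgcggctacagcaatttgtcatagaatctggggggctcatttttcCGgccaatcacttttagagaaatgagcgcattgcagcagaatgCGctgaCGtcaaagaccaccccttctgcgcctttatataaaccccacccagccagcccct
Apob: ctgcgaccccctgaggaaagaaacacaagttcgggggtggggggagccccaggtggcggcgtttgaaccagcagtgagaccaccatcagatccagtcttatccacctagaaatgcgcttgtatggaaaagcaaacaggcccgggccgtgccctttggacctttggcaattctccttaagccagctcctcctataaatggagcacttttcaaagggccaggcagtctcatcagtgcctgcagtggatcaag
The Neurog1 stretch held 29 CpGs, that of Plcl1 24 and that of Mael 18, and none of them was kept, since the measured positions of these windows lay elsewhere in the 1000 bp. In the stretch of Mcts2 9 of 20 CpGs were kept and in that of Hspa1l 4 of 9. The stretches of Mcts2 and Snrpd3 begin before their windows, which start at chr2:152687001 and chr10:75518001. Marked CpGs ahead of those coordinates, among them the 1 marked in Snrpd3, belong to the window before. At the other end Apob held 7 CpGs in these 250 bases.

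The label "CpG-sparse" refers here to the positions kept, and the CpGs in the DNA of each window were not counted. Counting every position listed with any read in any offspring library, the median was 11 per window (quartiles 6 and 19). Of the windows 20.4% listed 5 or fewer positions and 24.6% listed 20 or more, against 83.9% of dense windows under 20% at 20 or more. Windows with 1 to 5 kept positions above 80% methylation listed a median of 5, and windows with 6 or more kept positions under 20% listed 47. Promoters of 300 bp around a gene start (250 before, 50 after) gave the same order, for the 15.9% of windows outside chromosome 18 that held a start. The 3140 promoters in the windows described here held a median of 16 CpGs, against 4 in sparse windows above 80%, 25 in dense windows under 20% and 7 over all 31396 promoters of the table. Of the 31396, 18538 lay in no measured window and held a median of 4. The 3140 promoters had a median GC content of 59.3% and a ratio of observed to expected CpG of 0.645, against 0.245 in the sparse methylated windows. Of 55021 CpGs in these promoters 4408 (8.01%) reached the read minimum, against 12.7% in the sparse methylated windows and 21.1% in the dense unmethylated windows, shares that the limits on kept positions partly fix. Since the limit of 5 is on kept positions, the windows are called sparsely measured below.

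**Figure D1:**
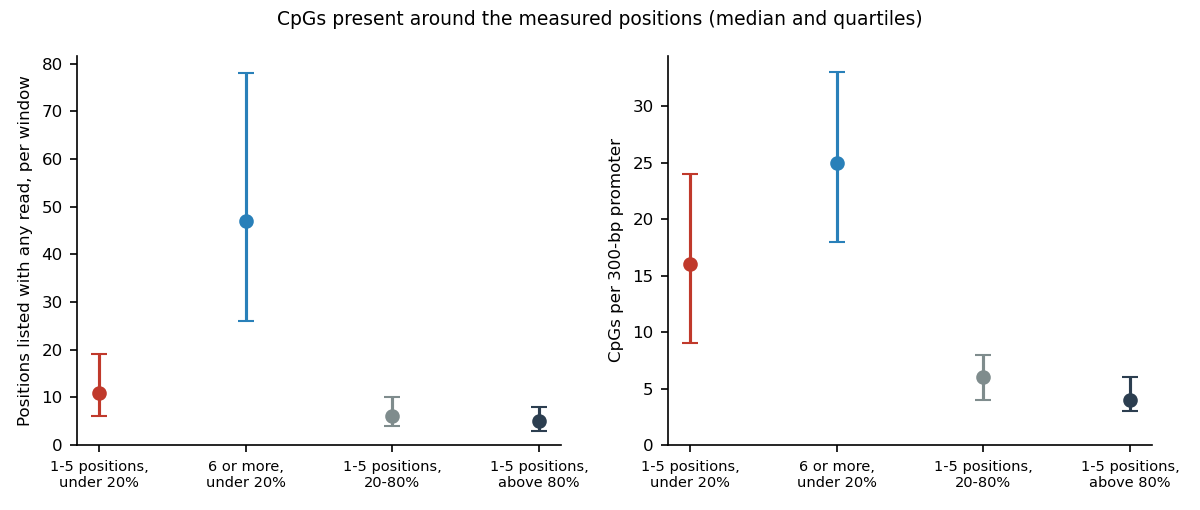
Points give the median and bars the quartiles, for sparsely measured windows under 20%, windows with 6 or more positions under 20%, and sparsely measured windows at 20 to 80% and above 80%. Left, positions listed per window with any read, with medians of 11, 47, 6 and 5, and right, CpGs per 300-bp promoter, with medians of 16, 25, 6 and 4.

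Short motifs followed the same order. The MspI site CCGG, which lies at fragment ends, was present in 80.5% of the promoters in these windows, 92.9% of those in dense unmethylated windows, 57.7% of those in sparse methylated windows and 53.5% of all promoters. All promoters include those in no measured window, where the share was 30.1%, and the assay reads only near this site. The GC box GGGCGG, the site of Sp1, was found on either strand in 57.1%, 72.3%, 10.1% and 36.0% of them. The TATA box TATAAA went the other way, with 7.07% against 15.9% in the sparse methylated windows and 13.6% in all promoters. The CCAAT box CCAAT was at 36.9% here and 37.3% in all promoters.

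Methylation was low but seldom 0. The median level was 3.96%, with 5% of windows under 0.799% and 5% above 16.3%. Between 2 and 5% lay 6341 windows (36.6%), between 15 and 20% lay 1213 (6.99%), and 1262 (7.28%) were under 1%. The unmethylated spike-in DNA read as 0.542% to 1.22% methylated in the offspring libraries, and 1766 windows (10.2%) were at or under the highest of these values. The share of windows under 20% rose with the number of kept positions, from 12.5% of those with 1 position (3990 windows) to 46.7% of those with 5 (2342 windows), while the median level of the windows under 20% fell from 5.69% to 2.52%.

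**Figure D2:**
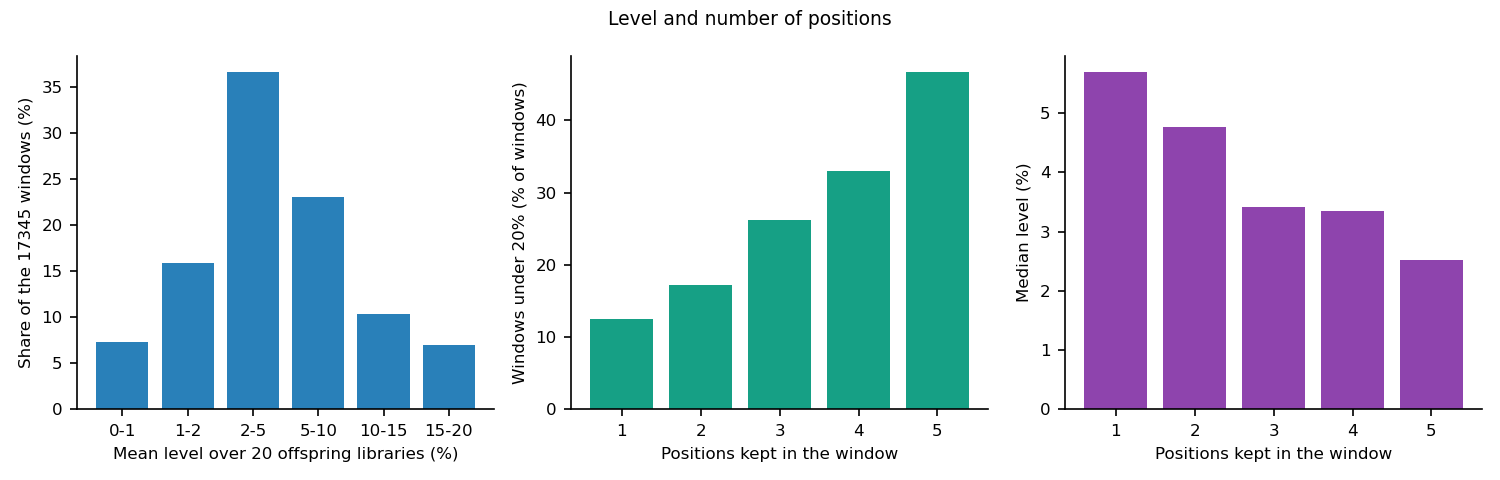
Left, share of the 17345 windows in each band of mean level over 20 offspring libraries, in percent, with the 2 to 5% band highest at 36.6%. Middle and right, by number of kept positions from 1 to 5, the share of windows under 20%, rising from 12.5% to 46.7%, and the median level of those windows, falling from 5.69% to 2.52%.

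No methylated read appeared in any of the 20 offspring libraries in 104 windows. The first of those with 5 positions, ordered by the reads of their shallowest library, was the Plcl1 start, where the libraries had 75 to 343 reads and 3307 in all, a depth at which 0 methylated reads allow a level of up to 0.0907% (3 reads of the total, counting error only). Plcl1 encodes a phospholipase C-like protein without catalytic activity. The second, in Aloxe3 (chr11:69125001-69126000), a skin lipoxygenase gene, over a lysine tRNA gene, had 4586 reads (up to 0.0654%). In B4galt4, a galactosyltransferase gene, Ccnl2, a cyclin gene, and Relb, an NF-kB subunit gene, windows of 2 or 3 positions at 0 had 2796, 2000 and 1909 reads. In the F0 libraries, which the choice did not use, the Plcl1 window was at 0.833%, 0% and 0% in Control F0 and 0% in the single SSCT F0 library that covered it. The Aloxe3 window reached 6.21%, 3.60% and 1.80% in Control F0. In SSCT F0 it was at 2.39% and 0%. The Ccnl2 window was at 0% in all 5 F0 libraries that covered it.

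Within a window the positions lay close together. The windows held 47582 positions on 45563 CpGs, and 97.5% of the positions were themselves under 20%. Among the 13355 windows with 2 or more positions the median range between positions was 4.46 percentage points. For the 2019 CpGs read on both strands, the strands differed by a median of 1.51 points, and 12 CpGs differed by more than 20 points. In 28 windows a position at 50% or more was averaged with lower neighbours. A total of 4064 windows (23.4%) rested on a single CpG.

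Values ran on across the limit of 20%. The highest level inside was 19.99% at a window in Gm29230 (chr3:51083001-51084000), where the mice ranged from 0% to 54.7%. The next inside were an intergenic window at chr7:49717001-49718000, the start of the RNA gene Snhg20, an intergenic window at chr1:23499001-23500000 and a window in Elfn1, all at 19.97% to 19.98%. Just outside were windows at chr4:131266001-131267000, chr9:115543001-115544000, chr12:51831001-51832000, chr4:74698001-74699000 and chr19:8570001-8571000, at 20.01% to 20.03%.

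The windows held gene starts more often than all windows did, and less often than dense unmethylated windows. Starts on chromosome 18 were not analysed here, which left 16752 windows, and 2663 of these (15.9%) held a start. The share was 10.3% over all windows and 42.8% in dense unmethylated windows. Of all sparsely measured windows with a gene start, 74.6% were under 20%. That share was 49.2% at 1 to 2000 bp from the nearest start, 16.2% up to 10000 bp and 13.2% beyond 100000 bp. The level of the windows under 20% followed, with a median of 2.50% at starts and 5.37% beyond 100000 bp. Even so, 5922 of the windows lay more than 10000 and up to 100000 bp from the nearest start, and 1787 farther away.

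**Figure D3:**
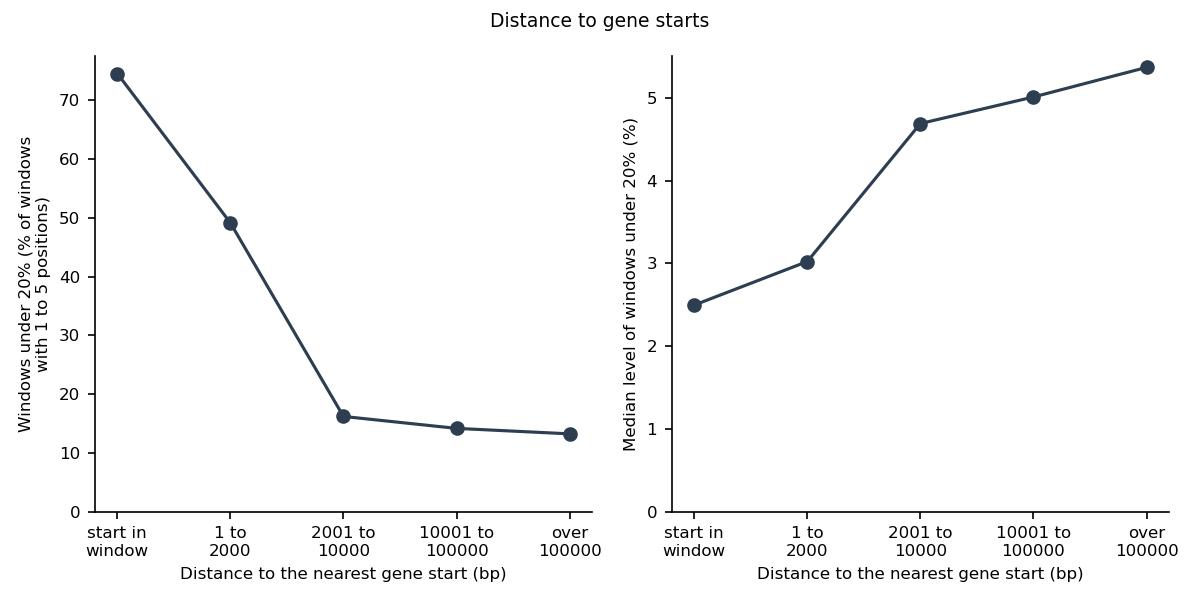
Left, percentage of sparsely measured windows that were under 20%, and right, median level of those windows in percent, by distance to the nearest gene start in bp. The share falls from 74.6% at starts to 13.2% beyond 100000 bp and the level rises from 2.50% to 5.37%.

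Neighbouring windows shared the state. A neighbour was measured for 52.0% of the windows, and of these 88.2% lay next to another window under 20%. That share was 93.9% for dense windows under 20%, 57.9% for all windows and 9.74% for sparse windows above 80%. Of the sparse windows above 80% with a measured neighbour, 83.6% lay next to another window above 80%, so a shared state was not particular to the windows described here. Next to a dense unmethylated window lay 4423 (25.5%), with a median level of 2.75%, against 4.87% in the 8317 without a measured neighbour. Of all, 54.1% had no adjacent measured window under 20%, 33.2% were in pairs and 12.7% in runs of 3 or more. Most of the 54.1% were the 8317 without a measured neighbour (47.95% of all), and 1067 (6.15%) had measured neighbours all at 20% or more. An unmeasured neighbour also ends a pair or a run. The longest run spanned 14 windows at Zfp503 (chr14:21981001-21995000), a gene for a zinc finger protein of forebrain development, and 5 of them were sparsely measured. Hes1, a target of Notch signalling, lay in a run of 9 windows with 6 sparsely measured, and Isl2, a motor neuron factor, in a run of 8 with 5. Runs of 10 windows at Gata3, a T cell and ear regulator, and Tnrc18 held 1 and 4.

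Only 11 windows lay between 2 neighbours above 80%. The deepest was the start of Erfe, the erythroid hormone erythroferrone, at 3.17% ± 3.23 (SD, n = 20) between neighbours at 97.5% and 93.0%. The start of Pnpla1, a skin lipid enzyme, was at 2.20% ± 6.61 (SD, n = 20) between 83.7% and 94.4%, and a window in Ankrd13a at 2.96% between 93.1% and 98.0%. Intergenic windows at chr3:101161001-101162000 and chr3:101800001-101801000 were at 13.7% and 11.4%. In Control F0, outside the choice, Erfe measured 5.85%, 2.50% and 3.39%, and Pnpla1 0%, 0.943% and 0%.

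The protocadherin clusters on chromosome 18, whose variable exons each carry a promoter and give neurons their surface identity, held many of the windows. In the Pcdhb cluster (chr18:37264998-37521419) 10 of 18 measured windows were among them, with a median level of 1.95%. In Pcdha it was 9 of 17 (median 2.35%) and in Pcdhg 17 of 39 (median 4.55%), against 16.4% of all windows.

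Germ-line promoters, which somatic cells methylate and germ cells keep open, were low throughout. Of 20 listed genes with a measured start, 5 had one in these windows and 16 in a dense window under 20%, 1 gene being in both counts, and none had one in a higher window. Mael was lowest, at 0.315% ± 0.654 (SD, n = 20 mice), with 15 mice at 0% and the highest at 2.47%. Prdm9, which places meiotic recombination, was at 1.71% with a highest mouse of 3.96%. Asz1, of the transposon-silencing piRNA pathway, was at 2.18% and Tex101, a germ-cell surface protein, at 2.48%. Tex14, needed for the bridges between germ cells, was the exception at 11.5% ± 4.85, from 2.91% to 21.8%. In the F0 libraries Tex14 was at 11.4%, 8.25% and 6.69% in Control F0 and at 5.02%, 15.3% and 81.9% in SSCT F0, so that replicate 3 alone was high.

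Spermatid genes and transcription factors of the embryo were low as well. Spaca1, an acrosome protein, was at 0.778%, H1f7, a spermatid linker histone, at 0.814%, and the window with the starts of Hspa1a and Hspa1l, heat shock proteins, at 1.23%. Among 62 developmental transcription factors all had a measured window within 2000 bp of the gene, and 54 had a sparsely measured one under 20%. Of 36 with a measured start 9 had it in such a window. Neurog1 was at 0.978%, with 11 of 20 offspring mice at 0%, Hoxb4, which patterns the hindbrain, at 1.08%, and Lhx1, a head organiser, at 1.11%. Nkx2-2, a spinal cord and islet factor, was at 1.18% ± 1.04, and Tbx1, the pharyngeal factor, at 1.39%. The Hoxb4 mean rested on single mice, since 1 SSCT F2/P mouse was at 16.7% and 17 mice were at 0%.

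Measured starts of imprinted genes were mostly under 20%. Of 12 maternally methylated imprinted genes with a measured start, 3 lay in sparsely measured windows and 9 in dense windows under 20%. Mcts2 was at 1.17%, Fkbp6 at 6.23% and H13 at 6.48%, the last on a single position. Of 4 paternally methylated loci with a measured gene start, 2 had one in these windows and 1 had a start at 20 to 80%. The Meg3 start was at 4.56% ± 4.23 and starts of the growth factor gene Igf2 at 2.58% and 4.39%. Methylated windows lay near by, and the highest within 2000 bp of the gene was at 98.0% for Meg3, 97.4% for H19 and 99.05% for Rasgrf1. Maternally methylated genes had such windows too, at up to 90.6% for Snrpn, 94.8% for Kcnq1ot1, 81.5% for Peg10 and 97.8% for Grb10. Peg3, Mest, Nnat and Plagl1 had no window above 80%. A high window near a gene therefore does not mark a paternal imprint here. Meg3 in the 5 SSCT F1 mice was at 0%, 0%, 4.04%, 0% and 0%, and in Control F1 at 4.02%, 7.83%, 2.29%, 11.9% and 2.01%, values that overlap and that no comparison called.

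The remaining lists follow by their measured starts. Of 8 pluripotency genes with a measured start, 2 had one in these windows and 5 in a dense window under 20%. A start at 20 to 80% was found for 1 gene and above 80% for 1, and a gene can have several starts. In these windows Fgf4, a growth factor of the early embryo, was at 1.41%. Pou5f1, the core factor Oct4, was at 15% ± 9.77, from 0.725% to 34.2%. Of 17 housekeeping genes with a measured start, 4 had one in these windows and 13 in dense windows under 20%. The 4 were Rps3 at 1.34%, Snrpd3 at 2.32%, Ldha at 4.19% and Rpl13a at 13.3%. Among genes of differentiated tissues the start of Apob was at 6.21% ± 8.23, and the other 2 measured starts were above 80%. None of the 8 measured starts of DNA methylation writers and erasers was sparsely measured, and all 8 lay in dense windows under 20%.

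Of the 30 list windows with a start 0 were called in each of the 6 comparisons between offspring sets, where 0.222% to 0.314% of all windows were called, and the largest absolute difference was 12.9 points. It was also 0 in the pooled F2 comparison (0.114% of all) and in Control F0 against Control F1 (29 tested, largest 9.39 points, 0.537% of all). In SSCT F0 against Control F0 with all 3 SSCT F0 libraries, 1 of 9 tested was called, the Tex14 start, higher by 56.3 points, against 10.1% of all. Without SSCT F0 replicate 3, 0 of 24 were called, with a largest difference of 15.2 points, against 8.91% of all. With so few windows and such shares, nothing is read from these counts.

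Mice differed within the windows. The median SD over the 20 offspring mice was 4.93 points, against 1.91 points computed from the read numbers, which covers counting error only and takes reads as independent molecules, and dense unmethylated windows had 1.46 against 0.606. Every mouse was under 20% in 9862 windows (56.9%), and in 930 (5.36%) at least 1 mouse reached 50%. In 745 of those a single mouse did, with a median of 56.3% for that mouse and 35.6% for the next. Of those 745 windows 66.3% had 1 position, against 23.0% of all, and 71 had every other mouse under 20%. The single high mouse was spread over all sets, with 17 to 33 windows per library in SSCT F2/P, 21 to 50 in SSCT F2/M, 32 to 45 in Control F1 and 31 to 79 in SSCT F1.

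The 5 widest spreads were all at single positions. In Hcn4, a pacemaker channel gene (chr9:58858001-58859000), Control F1 replicate 3 and SSCT F2/P replicate 3 were at 100%, SSCT F2/P replicate 4 at 17.9% and the other 17 offspring mice at 0%. In Ptprn2, a phosphatase-like gene of secretory granules (chr12:117150001-117151000), SSCT F1 was at 76.5%, 0%, 100%, 0% and 78.8%, and Control F1 at 1.30% and 4 times 0%. In Lrrc1, a gene for a cell polarity protein, 1 SSCT F1 mouse was at 100% and 2 SSCT F2/M mice at 95.2% and 66.7%, and Control F0 replicate 1 was at 78.9%. In Rmdn2, a microtubule-associated gene, 1 SSCT F2/P mouse was at 100% and 1 Control F1 mouse at 75%. In Fosb, an AP-1 subunit gene, SSCT F1 replicates 2 and 3 were at 78.6% and 100% and SSCT F2/P replicate 4 at 57.1%. At each of these 5 positions at least 1 mouse of every offspring set was at 0%.

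Averaged over all windows the offspring sets lay close together. The mean was 5.61% ± 0.143 in Control F1, 5.75% ± 0.159 in SSCT F1, 5.52% ± 0.254 in SSCT F2/P and 5.56% ± 0.235 in SSCT F2/M (SD, n = 5 each), and the ranges of the sets overlapped. Control F0 was at 5.94%, 5.24% and 5.57%. SSCT F0 was at 6.97%, 5.61% and 4.16%, over the 16968, 15026 and 4539 windows that its replicates 1, 2 and 3 covered.

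The distribution in SSCT F0 was wider than the mean shows. Windows at 50% or more were 1.97%, 2.55% and 3.28% in SSCT F0, against 0.484%, 0.214% and 0.273% in Control F0 and 0.179% to 0.588% in the 20 offspring libraries, with no overlap. At the other end 70.7% and 74.8% of windows were at 0% in SSCT F0 replicates 2 and 3, and 45.2% in replicate 1, against 33.6% to 44.9% in Control F0 and 35% to 48.3% in offspring. The median number of reads per window was 110, 153 and 721 in SSCT F0 replicates 1 to 3, and 92 to 193 in the other libraries. In the same libraries sparse windows above 80% averaged 95.3%, 89.4% and 59.3%, against 96.1% to 96.8% in Control F0. The part of low input in these values was not tested.

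**Figure D4:**
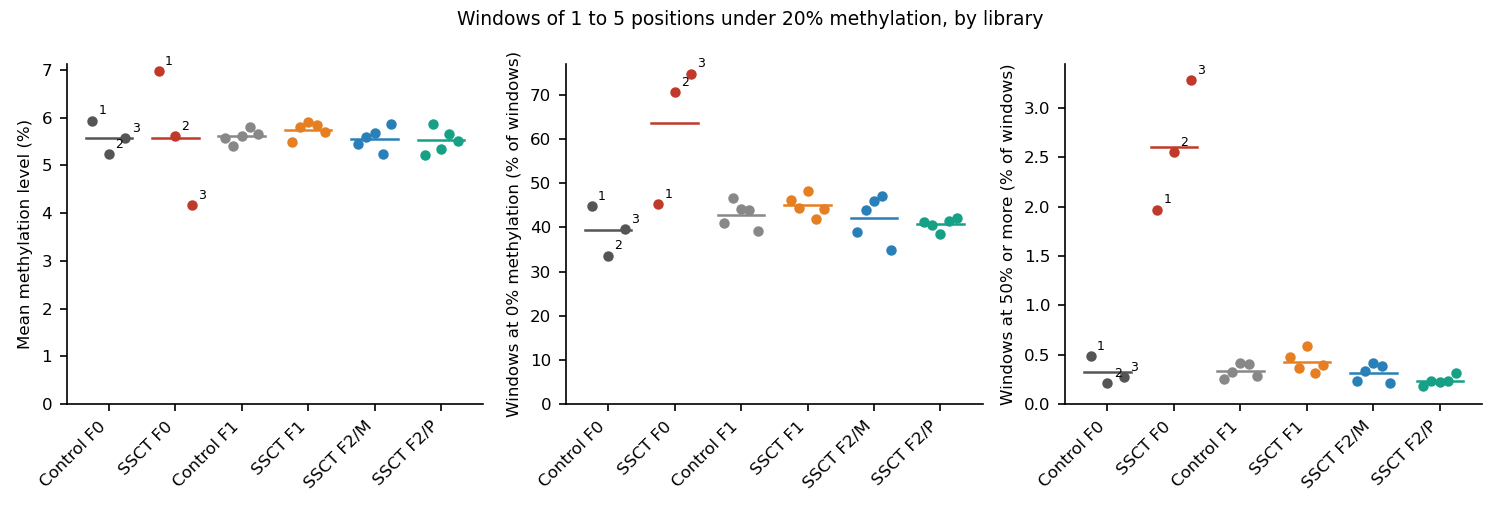
Each point is a library and each line the mean of its group, with F0 replicate numbers beside the points. The panels give the mean level of the windows, the percentage of windows at 0% and the percentage at 50% or more, where SSCT F0 stands at 1.97% to 3.28% and every other library at or under 0.588%.

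Lists of promoters known to be unmethylated in sperm served as a check of the libraries. Start windows of maternally methylated imprinted promoters (13 measured) averaged 0.666% to 5.37% in the offspring libraries, 1.59% to 3.31% in Control F0 and 2.40% to 7.58% in SSCT F0. The highest of these windows was at 20.4%, 11.7% and 49.8% in SSCT F0 replicates 1, 2 and 3 and at 19.1% in Control F0. Among single offspring libraries it lay between 2.57% and 28.8%, a range that holds SSCT F0 replicates 1 and 2. SSCT F0 replicate 3, whose mean was the 7.58%, covered only 7 of the 13 windows. Germ-line promoters (21 start windows) averaged 2.54% to 4.57% in offspring and 3.06% to 3.72% in Control F0. In SSCT F0 they averaged 2.63% in replicate 1 (21 windows) and 4.10% in replicate 2 (19 windows). The highest window was at 20.6% in replicate 2 and at 21.8% in an SSCT F1 mouse. In replicate 3 they averaged 16.5% over the 7 windows covered, and 2 were at 20% or more.

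The low state held in the founders. Of 16746 windows with all positions needed read in Control F0, 96.5% averaged under 20% there and 3 averaged 50% or more. In SSCT F0 the share was 93.3% of 3931 windows covered in all 3 libraries. Without SSCT F0 replicate 3 it was 92.1% of 14755, and 187 of these 14755 averaged 50% or more. On the positions used, some windows of each set were at 20% or more in the offspring too. The sets of windows also differed, so the shares of Control F0 and SSCT F0 are not set against each other.

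In SSCT F0 against Control F0 the split between higher and lower windows depended on the size of difference asked for. A window was called at a Benjamini-Hochberg q under 0.01 by the chi-square likelihood-ratio test on reads and a read-weighted difference above 25 points. With 3 mice against 3, 174 of 3845 windows were called (4.53%), 155 higher and 19 lower in SSCT F0, against 10.1% of all 13451 windows tested, of which 2.81% were higher and 7.27% lower. Without SSCT F0 replicate 3, 442 of 14329 were called (3.08%), 400 higher and 42 lower, against 8.91% of all 62651 tested, 2.63% higher and 6.28% lower. A window near 0% cannot fall by 25 points, so the split by direction is partly fixed by the choice of windows. The same held for the dense unmethylated windows, where 72 of 15892 were called without replicate 3, 65 of them higher. At 10 points 683 windows (17.8%) were called with 3 SSCT F0 mice, against 20.7% of all windows tested. Of these 294 were higher (7.65% of the windows described here, against 6.82% of all) and 389 lower (10.1%, against 13.9%). Without replicate 3 it was 1389 higher (9.69%, against 7.96% of all) and 953 lower (6.65%, against 13%). The median difference over the tested windows was -1.81 points with 3 SSCT F0 mice and -0.64 points with 2.

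The test takes no account of the spread between mice. With the F test, which scales by that spread, no window of any kind was called in any comparison here (0% of those tested). With so few mice and an adjustment over all windows tested, this test could hardly reach a q under 0.01, so the 0 carries little weight. Before adjustment, 37 of the 3845 windows described here passed 25 points at a p under 0.05 by the F test (0.962%, against 2.22% of all windows tested). Without SSCT F0 replicate 3 it was 152 of 14329 (1.06%, against 3.09%). Windows called without overlap between the mice were 23 of 3845 (0.598%, against 2.91% of all tested) and, without replicate 3, 254 of 14329 (1.77%, against 5.59%). Of these 254, 223 were higher in SSCT F0, where 1.91% of all windows tested were called higher without overlap.

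The 400 windows called higher had higher offspring levels and fewer positions than the rest. Their median offspring level was 9.99%, against 3.97% for all tested, and 40.5% had 1 position against 21.1%. The share called higher was 0.751% of windows under 1% in offspring and 10.6% of those at 15 to 20%, and 5.37% of windows with 1 position against 1.29% of those with 5. A gene start lay in 5.53% of them, against 15.9% of those tested. Their median read number was 57.5 in replicate 1 and 89 in replicate 2, against 105 and 152 over all tested.

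**Figure D5:**
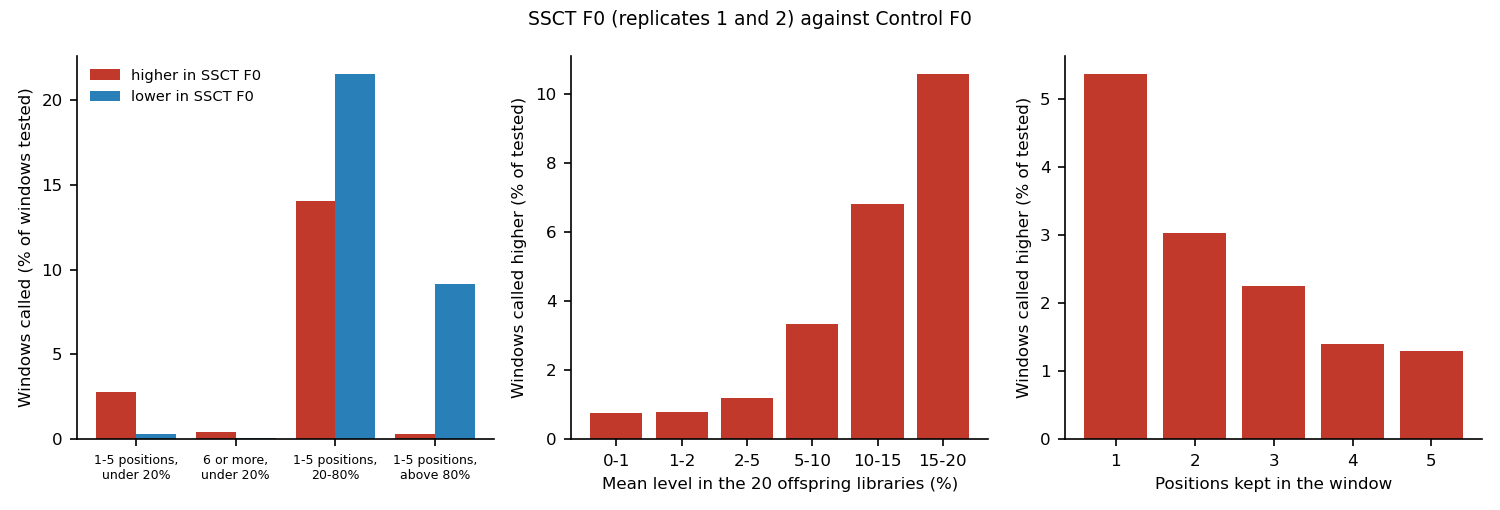
SSCT F0 replicates 1 and 2 against Control F0. Left, percentage of tested windows called higher or lower in 4 kinds of window. Middle and right, percentage of the sparsely measured windows under 20% called higher, by offspring level (0.751% to 10.6%) and by number of positions (5.37% to 1.29%).

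The 2 well-covered recipients differed. Averaged over the 400 windows, SSCT F0 replicate 1 was at 32.5% and replicate 2 at 60.3%, while the Control F0 mice were at 10.1%, 8.10% and 9.39%. Of the tested windows 236 were at 50% or more in replicate 1 and 349 in replicate 2, and 70 in both, 29.7% of the first list and 20.1% of the second. Replicate 3 covered 91 of the 400 windows, with 66 of these at 0% and 6 at 50% or more.

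At the 5 windows with the largest gains without SSCT F0 replicate 3, both mice were at 75.6% to 100%. At chr5:110063001-110064000, intergenic, SSCT F0 replicates 1 and 2 were at 95.7% and 100% and all 3 Control F0 mice at 0% (difference 98.6 points, q = 8.21e-47, 16 to 54 reads). In Gpr39, a zinc receptor gene (chr1:125730001-125731000), both were at 100% and the controls at 0%, 9.78% and 0%. In Armc2, a gene of the sperm tail (chr10:41971001-41972000), 3 positions averaged 100% and 99.5% against 2.48%, 12.4% and 7.02%, a difference of 91.9 points (q = 6.26e-170). The other 2, intergenic and with 3 positions each, were chr5:114617001-114618000 at 100% in both and chr12:106682001-106683000 at 75.6% and 100%. At each of the 5 windows both SSCT F0 mice were above all 3 Control F0 mice, and the 20 offspring averaged 5.50% to 18.6%.

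With all 3 SSCT F0 mice the 5 largest differences rested in part on replicate 3. An intergenic position at chr1:147348001-147349000 was at 72.7%, 97.7% and 99.4% in SSCT F0 and at 37.5%, 9.38% and 5.71% in Control F0 (86.6 points). A position in Skor2, a corepressor gene of the cerebellum (chr18:76880001-76881000), was at 51.2%, 79.0% and 100% against 13%, 22.7% and 6.67%. In Gm33763 (chr13:53463001-53464000), at 1 of 4 positions, the values were 19%, 0.709% and 100% against 0% in every control, and without replicate 3 the difference was 2.56 points. In Fetub, a liver fetuin gene (chr16:22931001-22932000), replicate 3 was likewise at 100%, and the difference fell from 63.4 to 12.9 points without it. At chr4:123991001-123992000 SSCT F0 was lower, by 79.3 points, at the 1 of 4 positions covered in all 6 mice. That position was at 83.8%, 66.0% and 100% in Control F0 and from 0% to 100% in offspring, although its window averaged 18.2% in offspring, and without replicate 3 the window differed by -8.94 points.

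At gene starts 19 of 567 windows (3.35%) were called higher with all 3 SSCT F0 mice, against 2.81% of all windows tested. Without replicate 3 it was 21 of 2203 (0.953%), against 2.63%. Among the 21 were Ecrg4, a secreted growth regulator (63.8 points), Atp6v1e2, a proton pump subunit of the testis (46.3 points), Usp21, a deubiquitinase (38.8 points), Alkbh8, a tRNA methyltransferase (36.6 points) and Srsf1, a splicing factor (34.6 points). These were picked after their values were seen.

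In the offspring the 400 windows averaged 10.3% ± 0.478 (SD, n = 5) in Control F1 and 10.3% ± 0.558 in SSCT F1. The F2 sets were at 9.92% ± 0.939 (F2/M) and 10.2% ± 0.452 (F2/P). Of the 400, 1 was called higher in SSCT F1 against Control F1 (0.25%, against 0.168% of all windows) and none lower, 2 higher (0.5%, against 0.13%) and 1 lower in SSCT F2/M, and none in SSCT F2/P. The limit of 20% on the offspring mean bounds these averages, the comparisons with Control F1 share that group, and nothing is read from counts this small.

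Between offspring sets calls were rare. In SSCT F1 against Control F1, 19 of 17345 windows were called, a share of 0.110% against 0.314% of all 106004 windows. Of these 8 were higher in SSCT F1 (background 0.168%) and 11 lower (0.146%). In SSCT F2/M against Control F1 it was 20 against 0.246% of all, with 12 higher (0.13%) and 8 lower (0.116%). In SSCT F2/P against Control F1 it was 16 against 0.252%, with 6 higher (0.125%) and 10 lower (0.127%). Both F2 sets pooled gave 7 against 0.114% of all, with 0 higher (0.0557% of all) and 7 lower (0.0585% of all). Of the 7, 1 had no overlap (0.00566% of all). The limit on the mean level leaves these windows less room to differ than others, so a lower share is no result by itself. At a difference above 10 points instead, 764, 689 and 687 windows were called, 4.40%, 3.97% and 3.96% of them, against 4.62%, 4.38% and 4.39% of all. With both F2 sets pooled it was 439, against 3.26% of all. No dense unmethylated window was called at 25 points in any comparison of offspring sets by the chi-square test.

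The remaining pairs gave like counts. SSCT F1 against SSCT F2/M called 15 windows (0.0865%, against 0.27% of all). Of these 5 were higher (0.13% of all) and 10 lower (0.14% of all) in SSCT F1. SSCT F1 against SSCT F2/P called 18 (0.104%, against 0.292%), 11 higher (0.177% of all) and 7 lower (0.115% of all). SSCT F2/M against SSCT F2/P, which the clustering figure names control F1 and SSCT F1, called 17 (0.0980%, against 0.222%). Of these 14 were higher (0.136% of all) and 3 lower (0.0858% of all) in SSCT F2/M. At 10 points these pairs called 787, 742 and 668 windows, against 4.62%, 4.68% and 4.25% of all. The F test called 0 windows in each, and before adjustment 16, 15 and 13 of the 17345 windows passed 25 points at a p under 0.05 in the comparisons with Control F1 (F1, F2/M and F2/P in turn), against 0.178%, 0.153% and 0.145% of all. It was 6 with both F2 sets pooled (0.0346%, against 0.0877%), and 11, 14 and 14 in the pairs without Control F1, against 0.143%, 0.154% and 0.129%.

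The named window with the most calls lay in Ctnna3, an adhesion gene of heart and testis (chr10:64137001-64138000, 1 position). Control F1 was at 35.6%, 32.9%, 33.3%, 51.7% and 48.7%. SSCT F1 was at 0%, 27.7%, 21.2%, 15.6% and 0%, SSCT F2/M at 12.3%, 30.9%, 0%, 0% and 16.2%, and SSCT F2/P at 8.20%, 8.82%, 4.26%, 11.8% and 4.55%. All 5 Control F1 mice were above the 15 others, with differences of -25.4, -27.2 and -34.1 points (q = 9.04e-09, 1.68e-11 and 1.42e-20) and 28 to 89 reads per mouse. It was called in 4 comparisons, which share Control F1, and Control F0, at 35.1%, 4.44% and 0%, overlapped both. Without Control F1 replicate 4 the difference was -21.9 points in SSCT F1 and -23.8 in SSCT F2/M, under the 25 points of a call.

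In SSCT F1 the largest called difference from Control F1 without overlap between the mice was at the start of Ppp1r3a, a glycogen phosphatase subunit of muscle (chr6:14755001-14756000, 1 position). SSCT F1 was at 23.1%, 25%, 4%, 36.4% and 35.6% and all 5 Control F1 mice at 0% (29.9 points, q = 6.76e-24). Control F0 was at 18.8%, 19.2% and 14.1%, inside the range of SSCT F1. At chr7:43873001-43874000 SSCT F1 was at 0% to 6.82% and Control F1 at 14% to 59.1% (-25.9 points), and without Control F1 replicate 3 the difference was -19.6 points.

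For the F2 sets the named windows were again single or paired positions. In Tdp1, a DNA repair gene (chr12:99885001-99886000), SSCT F2/M was at 10.2% in replicate 2 and 0% in the others, against 16.7% to 72.0% in Control F1 (-38.5 points, q = 4.24e-14). In Dpf3, a chromatin reader gene, SSCT F2/M was at 20.0% to 54.2% against 0% to 18.2% (26.6 points). SSCT F2/P was higher at chr7:43927001-43928000, at 12.4% to 48.4% against 0% to 6.82% (28.6 points), and in Ctnnal1, a catenin-like gene, at 20.0% to 67.6% against 0% to 14.8% (27.4 points). Each of these had no overlap between the mice. Without SSCT F2/M replicate 5 the Dpf3 difference was 22.3 points, and without SSCT F2/P replicate 2 the other 2 were 22.9 and 16.9 points. Called windows without overlap numbered 3, 3 and 5 for the F1, F2/M and F2/P sets in turn, against 0.0406%, 0.0396% and 0.0321% of all windows.

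SSCT F1 and SSCT F2/M differed without overlap at 2 windows (0.0115%, against 0.0311% of all). In Col8a1, a collagen gene of vessel walls (chr16:57626001-57627000), SSCT F1 was at 5.41% in replicate 2 and 0% in the others and SSCT F2/M at 17.9% to 39.0%, and at chr4:133226001-133227000 at 0% to 14.2% against 17.4% to 72.2%. Without SSCT F2/M replicate 1 the latter differed by -24.1 points. In the pairs of SSCT F2/P with SSCT F1 and with SSCT F2/M every called window overlapped, against 0.0226% and 0.0198% of all windows called without overlap. The largest there was the Ptprn2 position, 50.2 points higher in SSCT F1 than in SSCT F2/P through 3 of 5 mice, and chr2:90395001-90396000, 41.2 points higher in SSCT F2/M.

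Control F0 against Control F1, which compares old with young unmanipulated mice of successive generations, called 18 of 16746 windows, against 0.537% of all 101116 tested. Of these 12 were higher in Control F0 (0.19% of all) and 6 lower (0.347% of all), and 3 had no overlap (0.139% of all). The F test called 0, and 9 passed 25 points at a p under 0.05 before adjustment, against 0.243% of all. At 10 points 869 were called, against 5.95%. At chr13:85136001-85137000, intergenic, Control F0 was at 27.8%, 20.8% and 60.0% and Control F1 at 2.94% and 4 times 0% (38.1 points, q = 7.74e-13, 11 to 40 reads). At chr18:49641001-49642000 Control F0 was at 29.0%, 44.2% and 53.4% and Control F1 at 0% to 23.8%. In Phf2, a histone demethylase gene, Control F0 was lower, at 0%, 5.97% and 4.88% against 17.9% to 44.3%. The first difference was 24.1 points without Control F0 replicate 3, and that in Phf2 -19.1 points without Control F1 replicate 4.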

How the data were processed

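RRBS of 26 sperm libraries (50-bp single reads) was aligned to GRCm38 (mm10), with FastQC, Trim Galore 0.4.1, Bismark 0.20.0 and methylKit 1.7.0 named in the submitters' processing notes. The deposited files give, per library and strand-specific CpG position, a read count and the fraction methylated, without normalization by the authors. Libraries held 45616751 to 87707577 reads summed over positions. Methylated reads were recovered as fraction times count. Positions with at least 10 reads in all 20 offspring libraries, and in the F0 libraries a comparison used, were summed over autosomal 1000-bp windows. Groups were compared with a logistic likelihood-ratio chi-square test without overdispersion (the default of methylKit), Benjamini-Hochberg adjusted over all windows, calling q under 0.01 with a difference above 25 points. It was tested on simulated data (NumPy 2.4.6, SciPy 1.17.1). Alternatives were an F test, 5 or 20 reads, a coverage cap, 10 points, Storey q-values, a replicate block and leaving out each library. Counting limits at 0 methylated reads are 3 reads of the total, and since RRBS reads carry no molecular identifiers, they cover counting error only. This test weighs counting error and not the spread between mice, which the F test takes in.

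Gene names and sequences came from RefSeq tables of GRCm38.p6. Exons and introns were not analysed here. The text names, beside the windows at the 20% limit, those read deepest at 0, the largest called differences without overlap per comparison (5 in F0, 3 elsewhere, else the largest called), the 5 widest spreads, up to 5 starts per gene list and the 5 deepest windows between neighbours above 80%. Members and lists were chosen with earlier results of these data known. Replicate numbers did not pair libraries: same-numbered libraries of the offspring sets correlated at -0.0137 to 0.0152 in their deviations from group means (30 pairs).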

Additional observations from a re-analysis of the deposited data

Results flagged for a closer look

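Among 57 groups of 5 mice examined, 13 held a mouse far from its fellows by Dixon's criterion. All 13 lay in windows named for large differences or wide spreads over these same mice, so their number cannot be set against chance. In several of these groups the other mice were at 0%. The mice that stood apart were at 10.2% in Tdp1 (SSCT F2/M), 18.2% in Dpf3 (Control F1), 6.82% at chr7:43927001-43928000 (Control F1), 67.6% in Ctnnal1 (SSCT F2/P), 2.94% at chr13:85136001-85137000 (Control F1) and 5.41% in Col8a1 (SSCT F1). At the positions of widest spread they were at 38.9% (SSCT F2/P) and 1.30% (Control F1) in Ptprn2, 100% (SSCT F1) and 32.5% (SSCT F2/P) in Lrrc1, 100% in each of Control F1 and SSCT F2/P in Hcn4, and 40% (SSCT F2/M) in Rmdn2. The mean level, the share at 0% and the number of windows at 50% or more held no such mouse in any offspring set.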

How the results depend on the processing

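Direction was kept by all 27 named differences under the alternatives run, and none stayed called with the F test. Most were chosen for having no overlap between the mice, and the F test and replicate block use the same difference. The kept direction was therefore largely fixed by the choice and is no support for these differences. With the F test, which allows for the spread between mice, 0 windows were called in all 9 comparisons. With so few mice that test could hardly reach a q under 0.01, so nothing is concluded from the 0. At 10 points the counts were 683 (SSCT F0), 764, 689 and 687 (SSCT F1, F2/M and F2/P against Control F1), 439 (pooled F2), 869 (Control F0), 787, 742 and 668 (pairs of SSCT sets). At 25 points and 10 reads the counts were 174 (SSCT F0), then 19, 20, 16, 7, 18, 15, 18 and 17 in the same order. At 25 points and 20 reads they were 144 (SSCT F0), then 9, 7, 3, 1, 7, 3, 8 and 3. With 5 reads, also at 25 points, SSCT F1 against SSCT F2/P gave 11. Nothing is read from these counts by themselves. A replicate block, for numbers that do not pair the mice, gave 173, 19, 20, 16, 7, 18, 15, 18 and 17. Under the names of the clustering figure, an alternative chosen after seeing the data, pooled F2 gave 5.

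Leaving out 1 library gave 191 to 442 for SSCT F0, where only SSCT F0 replicate 3 moved the count by over 1.5 times. The ranges were 21 to 29 (SSCT F1), 23 to 29 (F2/M), 19 to 27 (F2/P), 6 to 17 (pooled F2), 26 to 70 (Control F0), 17 to 31, 18 to 31 and 19 to 27 (pairs of SSCT sets). The highest came without Control F1 replicate 2 in SSCT F1, F2/M and pooled F2, SSCT F2/P replicate 2, Control F0 replicate 2, SSCT F1 replicate 2, SSCT F1 replicate 1 and SSCT F2/M replicate 2 in turn. Counts also passed 1.5 times without SSCT F1 replicate 4 (29, SSCT F1), Control F1 replicate 3 (25, F2/P), Control F1 replicates 1 and 4 (12 and 11, pooled F2), Control F1 replicates 1, 2, 3 and 5 and Control F0 replicates 1 and 3 (32, 34, 32, 28, 48 and 60, Control F0), SSCT F1 replicates 1, 3 and 5 and SSCT F2/M replicates 2 and 3 (27, 26, 25, 24 and 23, SSCT F1 against F2/M) and SSCT F1 replicate 5 (29, SSCT F1 against F2/P).

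Named calls fell under 25 points without a single library at Ctnna3 (to -21.9 points, without Control F1 replicate 4 or 5 or SSCT F1 replicate 1 or 5 in SSCT F1, and to -23.8 without Control F1 replicate 4 in F2/M), chr7:43873001-43874000 (to -19.6, Control F1 replicate 1 or 3), Dpf3 (to 22.3, SSCT F2/M replicate 3 or 5), Ctnnal1 and chr7:43927001-43928000 (16.9 and 22.9, SSCT F2/P replicate 2), chr13:85136001-85137000 (24.1, Control F0 replicate 3), Phf2 (-19.1, Control F1 replicate 4) and chr4:133226001-133227000 (-24.1, SSCT F2/M replicate 1). The share under 20% was 94.8% to 96.3% in Control F0 (lowest without replicate 2) and 91.6% to 92.1% in SSCT F0 (lowest without replicate 1). The rule gave 14293 windows with 20 reads (7907 shared with the 17345), 17049 with 5 reads (12073 shared) and 8994 with 3 to 5 positions. The causes were not tested. SSCT F0 replicate 3 listed 305964 positions, and 3845 windows could be tested with it against 14329 without it.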

Other observations

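Of 172 microRNA hairpins in a measured window, 33 were in sparsely measured windows under 20%, 70 in dense windows under 20% and 51 in sparse windows above 80%. The lowest was Mir137, a neuronal microRNA, at 0.156% ± 0.699 (SD, n = 20) on a single position, with a highest mouse of 3.13%. Mir152, whose sequence is known to target Dnmt1, was at 1.79% ± 3.64 on 4 positions, with a highest mouse of 11.9%. These were chosen after their values were seen.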
